A study of Mus musculus with 2 samples.

Results

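Hepatocyte preparations from a liver with induced YAP contained many cell barcodes in which mitochondrial transcripts made up most of the RNA. These high-mitochondrial tetYAP barcodes were chosen from the tetYAP 4W library by 3 limits on raw counts of unique molecular identifiers (UMIs, each marking 1 captured transcript). The 13 mitochondrial mRNAs had to hold at least 50% of all UMIs, Malat1, a nuclear long non-coding RNA, had to hold at most 19 UMIs, and 12 genes of other cell types (Ptprc, Coro1a, Laptm5, Csf1r, Cd3e, Cd79a, Nkg7, Kdr, Ptprb, Egfl7, Ramp2 and Dcn) had to hold at most 3 UMIs together. The limits were met by 494 barcodes, out of 1524 in that library and 4513 in the series. Because these values chose the members, the mitochondrial share, the Malat1 count and the counts of those 12 genes are given below only as a description.

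The series captured cells of perfused mouse livers (C57BL/6 background) in droplets and counted the 3' ends of their transcripts. The control library was LaptTA;WT and carried the liver-restricted tetracycline transactivator with no inducible transgene. The tetYAP 4W library was LaptTA; tetYAP and carried the same transactivator with an inducible, constitutively active YAP, profiled after 4 weeks of induction. Both libraries therefore came from LaptTA carriers, in which the transactivator is driven in hepatocytes. Each group was 1 library, so no test between groups was possible, and whether animals were pooled is not given in the sources used here. All intervals below are 95% intervals of counting error only. The libraries shared 0 cell barcodes, and their depth ranged from 516 to 7277 UMIs per barcode in the control and from 2355 to 7493 in tetYAP 4W. They also differed in sex-linked transcripts: Xist, the X-inactivation RNA, had 3 UMIs in the control and 4859 in tetYAP 4W, and 4 Y-linked genes had 716 and 0 UMIs, so in any comparison with the control the sex of the animals and the induction of YAP cannot be told apart.

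Mitochondrial DNA encodes a small set of respiratory chain subunits, and all other proteins of the organelle are translated from nuclear genes. In droplet data a high mitochondrial share is widely used as a sign of a cell whose cytoplasmic RNA has been lost, but hepatocytes are rich in mitochondria and carry a high share when intact. YAP is the transcriptional effector of the Hippo pathway, which restrains liver size, and its activation in hepatocytes is known to raise fetal and ductal genes.

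Members filled 32.4% of the tetYAP 4W library (95% exact binomial interval 30.1 to 34.8%). In the control library the same limits were met by 40 of 2989 barcodes, or 1.34% (0.958 to 1.82%). The lowest depth was 516 UMIs in the control and 2355 in tetYAP 4W, and the part of this in the 2 shares was not tested. Within tetYAP 4W, 531 barcodes reached 50% mitochondrial UMIs. Of these, 10 exceeded the Malat1 limit, 33 exceeded the limit on other-cell genes, and 6 of them exceeded both. The mitochondrial limit cut through a filled part of the distribution. The nearest barcodes inside it stood at 50.03, 50.17 and 50.37% and the nearest outside at 49.83, 49.81 and 49.69%. At the other limits the edges were thin. A single member had 18 Malat1 UMIs, another single one had 19, and no barcode had 20 or 21. The other-cell genes were at 0 UMIs in 239 members and at 3 UMIs in 22, against 5 barcodes at 4 UMIs just outside.

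**Figure D1:**
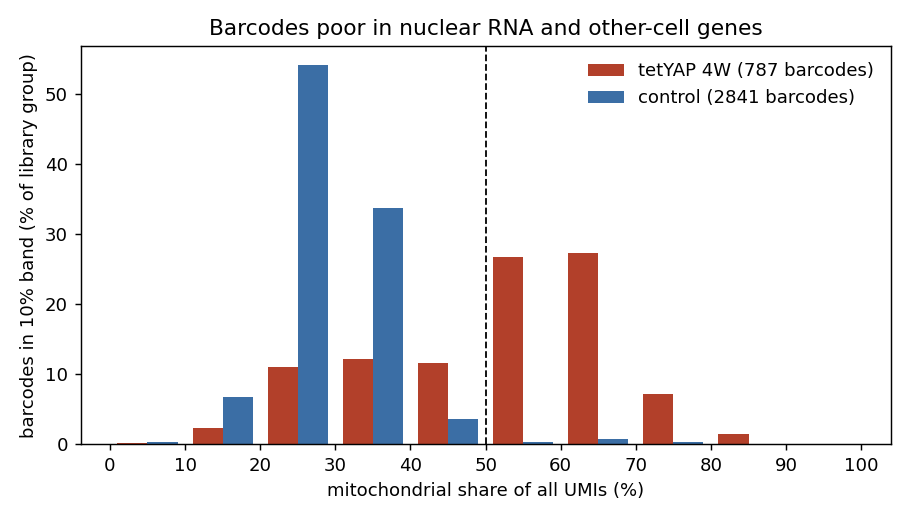
Barcodes with at most 19 Malat1 UMIs and at most 3 UMIs of other-cell genes, as a percentage of those in each library (y axis), in bands of 10% of mitochondrial share (x axis). The dashed line marks the 50% limit. The tetYAP 4W bars were tallest between 50 and 70% (211 and 215 barcodes), while the control bars were tallest between 20 and 40% (1540 and 959 barcodes).

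In tetYAP 4W the barcodes that met the other 2 limits were spread over a broad lower range and a main group above it. There were 87, 96 and 91 barcodes at 20 to 30, 30 to 40 and 40 to 50%, then 211 at 50 to 60%, 215 at 60 to 70%, 56 at 70 to 80% and 12 above 80%. The control had 1540, 959 and 102 barcodes in the first 3 of these bands and 10, 21 and 9 in the next 3. The 293 tetYAP 4W barcodes below 50% that met the other limits served as the comparison group from the same library (lower-mitochondrial tetYAP barcodes). The 2841 control barcodes that met the limits on Malat1 and other-cell genes, at any mitochondrial share, served as the comparison group from the other library (control barcodes).

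Members had more mitochondrial UMIs per barcode and fewer nuclear-encoded ones than both comparison groups. Their total ran from 2575 to 7428 UMIs with a median of 4174, of which a median of 2572 were mitochondrial (1399 to 5743) and 1644.5 nuclear-encoded (420 to 3581). Lower-mitochondrial tetYAP barcodes had medians of 3321, 1039 and 2155 UMIs, and control barcodes had medians of 3097, 871 and 2195 UMIs. The rule selects on the ratio of these counts, so both differences are a description of the selection. The number of genes detected was also lowest in members, with medians of 757 in members, 992 in lower-mitochondrial tetYAP barcodes and 901 in control barcodes. The total of members also started higher: the 5th percentile was 3560 UMIs in members and 2449 in lower-mitochondrial tetYAP barcodes. Over the 494 members, mitochondrial and nuclear-encoded UMIs had a Spearman correlation of 0.20, a description only, since both counts share the sequencing depth of the barcode.

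The 40 control barcodes that met the same limits were shallower than members, in a library that went down to 516 UMIs where tetYAP 4W stopped at 2355. They held a median of 1948.5 UMIs in total, 1319.5 mitochondrial and 647.5 nuclear-encoded, and 435 genes. Their high shares came with few nuclear-encoded UMIs and with more mitochondrial UMIs than the median of 871 in control barcodes. No gene-level ratio against these 40 barcodes was taken.

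**Figure D2:**
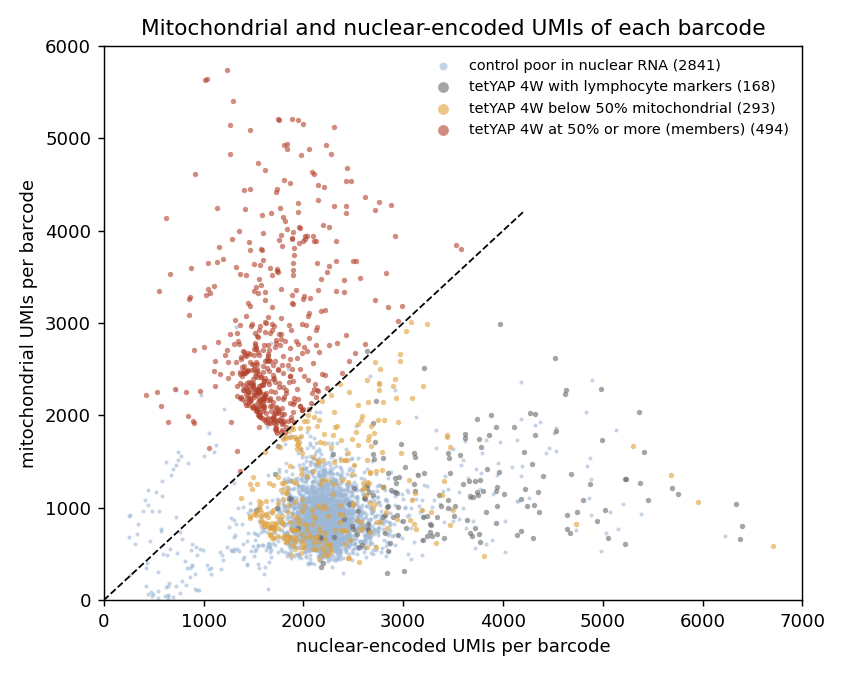
Mitochondrial UMIs (y axis) against nuclear-encoded UMIs (x axis) of each barcode, by group. The dashed line marks equal numbers, which is the 50% limit, and the 2 barcodes that were both lower-mitochondrial and lymphocyte-marker barcodes are drawn as the former. Members lay above it, with a median of 2572 mitochondrial UMIs against 1039 in lower-mitochondrial tetYAP barcodes and 871 in control barcodes, while their nuclear-encoded UMIs lay mostly to the left of both groups.

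The label hepatocyte was checked against marker transcripts. Alb, which encodes albumin (chromosome 5, 90460870 to 90476602 in GRCm38.p6, the mm10 build), was detected in all 494 members, with 8 to 521 UMIs and a median of 190. Summed over 12 hepatocyte markers, members held 54 to 841 UMIs, with a median of 362.5. Trf, Ttr, Apoa2 and Fgb were likewise found in 494 members, Apoa1 in 491, and Tat, a low-abundance enzyme, in 153. These values alone did not set members apart as hepatocytes, because barcodes of other cells held them too. The 170 tetYAP 4W barcodes with at least 5 UMIs of lymphocyte markers, cells that should lack Alb, held a median of 148.5 Alb UMIs (59 to 354), at a median of 3395 nuclear-encoded UMIs per barcode. Per barcode, the 12 hepatocyte markers summed to 377 UMIs in members (375 to 378) and to 312 in lymphocyte-marker barcodes (309 to 314).

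The comparison per barcode with lymphocyte-marker barcodes differed between hepatocyte gene groups. Secreted plasma proteins reached 658 UMIs per barcode in members (656 to 661) and 523 in lymphocyte-marker barcodes (520 to 526). Of the 35 genes in that list, 18 had an interval above the level in lymphocyte-marker barcodes and 7 an interval below it, where 4.97% of all 3440 genes measured were above and 66.7% below. C3, a complement component, was at 35.7 UMIs per barcode in members (35.2 to 36.2) and 16.9 in lymphocyte-marker barcodes (16.3 to 17.6). Col18a1, a basement membrane collagen, was at 2.29 (2.16 to 2.43) and 0.847 (0.714 to 0.997). Ttr, a thyroxine carrier, went the other way, at 19.3 (18.9 to 19.6) and 21.1 (20.4 to 21.8). Cytosolic hepatocyte enzymes were lower in members, at 41.5 UMIs per barcode (41.0 to 42.1) against 51.4 (50.3 to 52.5). By this measure members exceeded the level in lymphocyte-marker barcodes for part of the secretory genes. Of 32 cytosolic enzymes 1 had an interval above that level, near the share over all genes, and 12 an interval below it, a smaller share than over all genes. Their median log2 ratio per barcode was -0.19, against -1.22 over all genes measured. Since lymphocyte-marker barcodes held the hepatocyte markers too, the markers did not establish the cell type. The label hepatocyte is kept below only as the name of the preparation.

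Markers of most other cell types were sparse in members, and macrophage transcripts were the most widespread. Lymphocyte genes summed to 0 to 2 UMIs per member, with 7 of 13 genes at 0, neutrophil genes to 0 to 3, with 5 of 8 at 0, and cholangiocyte genes to 0 or 1, with 6 of 10 at 0, including Epcam, Krt7 and Cldn4. Macrophage genes were at 0 to 35 UMIs with a median of 4, and 20 members held at least 10. Lymphocyte-marker barcodes held 9.09 macrophage UMIs per barcode (8.65 to 9.56) and members 4.51 (4.33 to 4.70). Endothelial genes were at 0 to 20 UMIs with a median of 0, or 0.929 per member (0.846 to 1.02), and 4 members held at least 10, against 1.09 per lymphocyte-marker barcode (0.943 to 1.26). Stellate cell genes were at 0 to 6 UMIs, or 0.281 per member (0.237 to 0.332). Erythroid genes were at 0 in most members, but 2 members held at least 50 erythroid UMIs, up to 1047.

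Spp1, the gene of osteopontin and the ductal marker given for these barcodes (chromosome 5, 104435111 to 104441053), was found in 150 members, or 30.4%, at 0 to 10 UMIs. It was found in 23.5% of lymphocyte-marker barcodes and in 1.44% of control barcodes. After each barcode was thinned to 1000 nuclear-encoded UMIs, which left out 19 shallower members, the shares were 19.6% in members, 12.6% in lower-mitochondrial tetYAP barcodes, 5.29% in lymphocyte-marker barcodes and 0.542% in control barcodes. The mean was 0.464 Spp1 UMIs per member (0.405 to 0.528) and 0.294 per lymphocyte-marker barcode (0.218 to 0.388), so free RNA and expression in members cannot be told apart for most of these UMIs.

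The 13 mitochondrial mRNAs stood in nearly the same proportions in members as in lower-mitochondrial tetYAP barcodes. The most abundant was mt-Co3, a subunit of cytochrome c oxidase (complex IV), with 274 to 1343 UMIs per member and 23.2% of mitochondrial UMIs, against 23.5% in lower-mitochondrial tetYAP barcodes. Next came mt-Atp6, a subunit of ATP synthase (complex V), with 19.4 and 19.2%. Then followed mt-Co1, the catalytic subunit of complex IV (mitochondrial positions 5328 to 6872), with 207 to 975 UMIs per member, and its share was 13.7% in members (13.6 to 13.7) and 12.9% in lower-mitochondrial tetYAP barcodes (12.80 to 13.02). All of mt-Co1, mt-Co2, mt-Co3, mt-Atp6, mt-Cytb, mt-Nd1, mt-Nd2, mt-Nd3, mt-Nd4, mt-Nd4l and mt-Nd5 were found in each of the 494 members. At the low end, mt-Nd6, the gene read from the opposite strand, was found in 202 members and made up 0.0223% of mitochondrial UMIs. Reads of mt-Atp8 and mt-Atp6, and of mt-Nd4l and mt-Nd4, come from overlapping genes and may be split between them.

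By respiratory complex, members and lower-mitochondrial tetYAP barcodes differed by less than 1 percentage point. Complex IV, of 3 mitochondrial genes, held 50.3% of mitochondrial UMIs in members and 49.8% in the lower group. Complex I, of 7 genes, held 19.2 and 19.3%, complex V 19.5 and 19.3%, and complex III, which is mt-Cytb alone, 10.99 and 11.61%. Some genes differed more between members and other groups. In tetYAP 4W barcodes over the limit on other-cell genes, mt-Co1 was at 15.1%, against 13.7% in members, and mt-Atp6 at 18.1% against 19.4%. In control barcodes mt-Co2 was at 11.9%, against 13.5% in members, mt-Nd3 at 2.09% against 2.87%, and mt-Nd2 at 5.37% against 4.26%, while mt-Co1 was at 14.0%.

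Within members, the proportions shifted in the barcodes with the highest mitochondrial share. The mt-Co1 share was 13.2% in the 211 members at 50 to 60% (13.1 to 13.3), 13.4% in the 215 at 60 to 70% (13.4 to 13.5) and 15.1% in the 68 at 70% or more (15.0 to 15.3). Over the same bands mt-Cytb stood at 11.40, 11.09 and 10.02%, and mt-Nd3 at 2.64, 2.83 and 3.35%. In the control library mt-Co1 went from 13.5% below 20% mitochondrial share to 15.1% at 40 to 50%, and reached 19.8, 21.5 and 23.4% in the 10, 21 and 9 barcodes of the top 3 bands. The mt-Co1 share was thus highest in the top band of both libraries, and control barcodes above 50% had a higher mt-Co1 share than members of the same band.

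**Figure D3:**
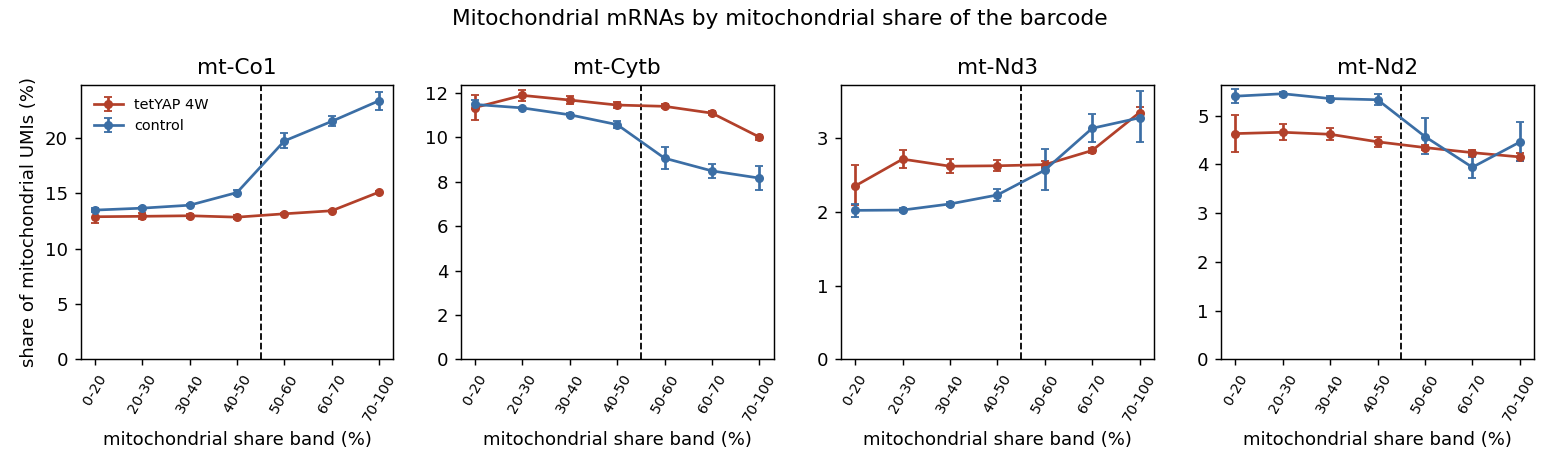
Share of all mitochondrial UMIs held by mt-Co1, mt-Cytb, mt-Nd3 and mt-Nd2 (y axis, each from 0) in bands of mitochondrial share (x axis), in tetYAP 4W and control barcodes. Bars are 95% binomial intervals and the dashed line marks 50%. The mt-Co1 share was 15.1% in tetYAP 4W and 23.4% in control barcodes at 70% or more, while mt-Cytb was at 10.02 and 8.17%.

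To compare what was left of the nuclear-encoded RNA, UMIs were summed over the barcodes of a group and scaled to 10000 nuclear-encoded UMIs, so that the mitochondrial share did not enter. The log2 ratio of 2 such levels is given with its interval, and 2-fold is the size past which a gene is counted as higher or lower. Among 3204 genes with at least 50 UMIs, 97 were at least 2-fold higher in members than in lower-mitochondrial tetYAP barcodes (3.03%) and 98 at least 2-fold lower (3.06%), together 6.09%, and the median gene stood at -0.19. This balance depended on the scaling. With edgeR's trimmed mean of M-values (TMM) it was 220 higher and 42 lower, without the 50 most abundant genes in the total it was 156 and 61, and with mitochondrial UMIs in the total it was 2 and 1606, so lists are read below against the median of all genes. With mitochondrial UMIs in the total the median of all genes shifted by -0.81, with TMM by 0.25 and without the 50 most abundant genes by 0.14.

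By share of nuclear-encoded UMIs, transcripts of secreted proteins were the leading group in members. Per barcode, secreted plasma proteins held 658 UMIs in members (656 to 661) and 628 in the lower group (626 to 631). Ribosomal proteins held 87.0 and 168 per barcode, cytosolic enzymes 41.5 and 67.0, and nuclear-encoded respiratory subunits 39.97 and 66.5. Over all 3204 genes, 1137 stood above 0 and 2067 below. Of 35 plasma proteins 29 stood above 0, 2 of them past 2-fold, and their median was 0.41 against -0.19 over all genes (-0.41 with mitochondrial UMIs in the total, where all genes were at -1.002). The 2 past 2-fold were C3 (chromosome 17, 57203967 to 57228136), with 6 to 128 UMIs per member, a level of 211 per 10000 in members and 91.1 in the lower group and a log2 ratio of 1.21 (1.17 to 1.26), and Apob, the scaffold of very-low-density lipoprotein, at 1.18 (1.10 to 1.27). Hp, haptoglobin, was at 0.996 (0.935 to 1.057) and Trf, transferrin, at 0.95 (0.92 to 0.98). Alb itself stood at 0.60 (0.58 to 0.62), with levels of 1172 and 773. Among the other secreted proteins, Ttr and Apoa2 were both at -0.12 (intervals -0.16 to -0.07 and -0.15 to -0.09), although with TMM both were at 0.13.

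Chaperones of the endoplasmic reticulum, where secreted proteins are made, lay on the same side by share of nuclear-encoded UMIs. Per barcode they were lower in members, at 15.1 UMIs (14.8 to 15.5) against 16.3 in the lower group (15.8 to 16.7). Of 20 genes 14 were above 0, none past 2-fold, and the median was 0.36 (-0.45 with mitochondrial UMIs in the total). P4hb, a protein disulfide isomerase, was at 0.95 (0.76 to 1.15), the chaperones Hspa5 and Hsp90b1 at 0.45 (0.32 to 0.58) and 0.46 (0.31 to 0.60), and Calr at 0.30 (0.15 to 0.46).

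Ribosomal proteins and nuclear-encoded respiratory subunits lay below the median of all genes. All 80 ribosomal protein genes measured were below 0, none past 2-fold, with a median of -0.51. Rps29 was at -0.44 (-0.56 to -0.33) and Rplp1 at -0.50 (-0.62 to -0.39). Of 73 nuclear-encoded respiratory subunits 71 were below 0, none past 2-fold, with a median of -0.30, and Cox4i1 stood at -0.33 (-0.48 to -0.18) and Ndufa4 at -0.27 (-0.40 to -0.13). The mitochondrial mRNAs of the same complexes were those that the rule required to be high. Of 32 cytosolic enzymes and carriers 25 were below 0, with a median of -0.24, both near the background of all genes. Within this list Fabp1, a fatty acid binding protein, was at -0.27 (-0.32 to -0.22), Prdx1, a peroxidase, at -0.39 (-0.50 to -0.28), and Bhmt, of methionine metabolism, at -0.40 (-0.51 to -0.29).

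Of the 10 genes with the highest ratios, Prom1, the membrane protein prominin, came first at 1.76 (1.09 to 2.48), with 97 UMIs over 494 members and 23 over 293 barcodes of the lower group. Col18a1 (chromosome 10, 77052178 to 77166530) stood at 1.55 (1.37 to 1.74), with 0 to 13 UMIs per member and levels of 13.6 and 4.62. Other extracellular matrix genes followed, with Smoc1 at 1.42, Spon2 at 1.41, Lamb2, a laminin chain, at 1.34 (0.83 to 1.89) and Nid1, nidogen, at 1.32 (0.90 to 1.75). The remaining genes were the membrane proteins Atp9a (1.41) and Gprc5c (1.38), the complement protease C1ra (1.34), and Lars2, the mitochondrial leucyl-tRNA synthetase.

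Lars2 was also set against mitochondrial instead of nuclear-encoded UMIs. Its log2 ratio was 1.70 (0.99 to 2.46) on the nuclear-encoded scale, from 85 UMIs in members and 21 in the lower group. Per 1000000 mitochondrial UMIs it stood at 60.3 in members (48.1 to 74.5) and 59.1 in the lower group (36.6 to 90.3), so on that scale no difference was detectable at this depth.

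The lowest genes were the neutrophil genes S100a9 (2 UMIs in members, -6.30) and S100a8 (3 UMIs, -5.68), the globin genes Hba-a2 (2 UMIs, -6.06), Hbb-bs (-4.69), Hba-a1 (-4.61) and Hbb-bt (-4.24), and Alas2 (-4.02), the erythroid enzyme of heme synthesis. The lower group held 34 barcodes with at least 50 erythroid UMIs, against 2 among members, and 59 with at least 10 macrophage UMIs, against 20. After the former were left out of both groups, Hbb-bs was at 0.20 and the other globins had too few UMIs to be measured. The lowest 10 also held Kcnq1ot1 and Neat1, long non-coding RNAs kept in the nucleus, at -1.87 (-2.53 to -1.25) and -1.39 (-1.74 to -1.04), and Gng11, a G protein subunit, at -1.68 (-2.25 to -1.13). Xist, also a nuclear RNA, was at -0.99 (-1.18 to -0.79). The rule had capped Malat1 in both groups, and Malat1 is not read here.

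Leaving out such barcodes kept secreted proteins above all genes. Without those of at least 50 erythroid UMIs, or of at least 10 macrophage, neutrophil, lymphocyte or endothelial UMIs, the median of secreted plasma proteins was 0.27 against -0.28 over all genes. With the limit at 60% instead of 50%, which moved 211 barcodes into the lower group, it was 0.23 and only 30 genes were past 2-fold higher. The part of free RNA in these ratios was not tested.

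Coding length ran along with the ratios. It was known for 92.5% of the genes measured, from GENCODE vM1. The genes at least 2-fold higher had a median coding length of 2157 bases, those at least 2-fold lower 720 bases, and all genes 1089 bases. Median log2 ratios were -0.43 for genes up to 500 bases, -0.28 from 500 to 1000 and -0.04 from 1000 to 2000. They were 0.06 from 2000 to 3000 and 0.04 above. Respiratory subunits had a median coding length of 432 bases and ribosomal proteins 465. Between 1000 and 2000 bases, 20 secreted plasma proteins had a median of 0.45, 20 cytosolic enzymes a median of -0.19 and 10 respiratory subunits a median of -0.16. At 500 to 1000 bases the medians were 0.22 for 4 secreted proteins, -0.39 for 7 cytosolic enzymes and -0.35 for 18 respiratory subunits. Against control barcodes, all genes up to 500 bases had a median of -0.50 and those above 3000 bases 0.44. In that comparison the 18 respiratory subunits of 500 to 1000 bases stood at -0.87, and all genes of that length at -0.26. The part of length in the ratios was not tested.

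Across bands of mitochondrial share, the shares of the lists moved in steps and not only at the 50% limit. In tetYAP 4W the secreted plasma proteins took 21.7% of nuclear-encoded UMIs below 20% mitochondrial share, 26.5% at 30 to 40%, 33.0% at 40 to 50%, 38.5% at 50 to 60% and 40.1% at 60 to 70%, and 36.4% above. Their UMIs per barcode did not rise in this way. From the lowest to the highest band they were 720, 580, 555, 733, 709, 669 and 469. Cytosolic enzymes went from 3.51% in the lowest band to 2.33% in the highest. The ratio of secreted to cytosolic enzyme UMIs went from 6.18 (5.90 to 6.46) to 16.9 (16.5 to 17.2) at 60 to 70% and 15.6 (15.0 to 16.4) above. Control barcodes showed the fall in the cytosolic share without the rise in the secreted share. Their secreted share stayed between 23.3 and 28.4% in all bands, while cytosolic enzymes went from 5.84 to 2.40%, and the ratio of the lists from 4.35 (4.30 to 4.41) to 9.72 (7.81 to 12.2). The control bands above 50% held 10, 21 and 9 barcodes.

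**Figure D4:**
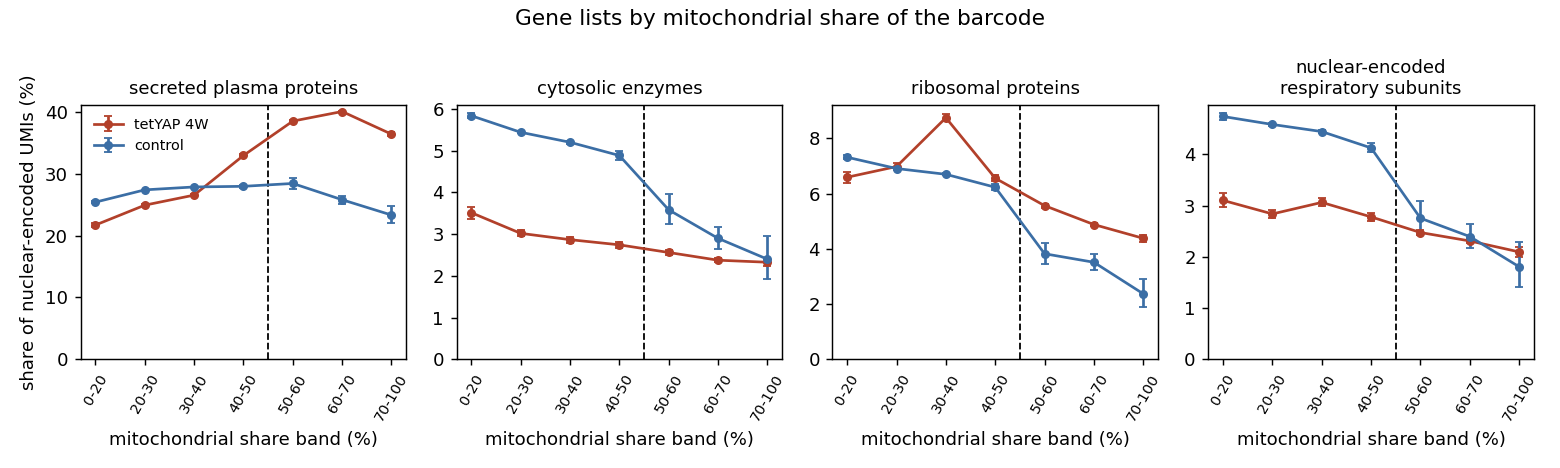
Share of nuclear-encoded UMIs held by secreted plasma proteins, cytosolic enzymes, ribosomal proteins and nuclear-encoded respiratory subunits (y axes, each from 0) in bands of mitochondrial share (x axis), with 95% binomial intervals. The dashed line marks 50%. The secreted share reached 40.1% at 60 to 70% in tetYAP 4W and 25.8% in the same control band, whereas the cytosolic share at 70% or more was 2.33 and 2.40%.

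Lists that bear on the induced liver were sparse in this comparison within the library. Of 26 YAP targets 6 were measured, with 1 past 2-fold higher (Nt5e, an ectonucleotidase, 1.001 from 50 and 20 UMIs), 1 lower (Tead1, the DNA-binding partner of YAP, -1.53) and a median of 0.32. Cyr61 stood at 0.95 (0.24 to 1.70) and Amotl2 at -0.38 (-0.97 to 0.22). Of 11 fetal and ductal genes measured, Prom1 was the 1 past 2-fold higher and the median was -0.31, with Spp1 at 0.95 (0.60 to 1.31), Gpc3 at 0.66 (0.19 to 1.13) and Krt18 at -0.18 (-0.42 to 0.07). Of 25 acute phase genes 0 were past 2-fold higher and 1 lower (Lcn2, -1.21), with a median of 0.09. Lcn2 is also in the neutrophil list, which summed to 302 UMIs in the lower group, up to 157 in a single barcode, and to 26 in members. In each of the YAP target, fetal and ductal, and acute phase lists, genes stood on both sides of 0.

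Against control barcodes, members differed in many genes, but induction, sex and every other difference between the libraries cannot be told apart. Yap1, the gene of YAP, was found in 4.66% of members (2.97 to 6.90) and 4.65% of control barcodes (3.90 to 5.49). It was found in 11.3% of lower-mitochondrial tetYAP barcodes (7.88 to 15.5). Thinned as for Spp1, members were at 3.16% (1.78 to 5.16) and control barcodes at 2.13% (1.63 to 2.74). Whether transcripts of the transgene are counted as Yap1 was not tested. Among 6964 genes measured, 982 were at least 2-fold higher in members (14.1%) and 600 at least 2-fold lower (8.62%), together 22.7%, with a median of -0.03. With TMM the counts were 661 and 1194, and with mitochondrial UMIs in the total 304 and 3367.

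YAP targets were higher in members than in control barcodes, and these genes were also present in the other tetYAP 4W barcodes. Of 26 listed genes 7 had enough UMIs, 6 of these were past 2-fold higher and 0 lower, and the median was 3.54. The minimum of 50 UMIs was summed over both groups, so genes near absent in the control could pass it only through members. The count and the median of this list are therefore a description. Cyr61, a matricellular protein and a direct YAP target, had 58 UMIs in members and 18 in the far larger control group, a log2 ratio of 4.60 (3.81 to 5.45). Axl, a receptor kinase, stood at 3.79 (2.95 to 4.68), Crim1 at 3.54 (2.90 to 4.19), Amotl2 at 2.67 (2.09 to 3.24) and Nt5e at 6.23 (4.91 to 7.92). All were sparse, with at most 3 UMIs in any member. Summed over the 26 genes, members held 0.808 UMIs per barcode (0.730 to 0.891), lower-mitochondrial tetYAP barcodes 1.05 (0.934 to 1.17), lymphocyte-marker barcodes 1.11 (0.953 to 1.28) and control barcodes 0.154 (0.140 to 0.169). Members were thus below lymphocyte-marker barcodes in this sum, but those were deeper, with a median of 3395 nuclear-encoded UMIs against 1644.5. As a share of nuclear-encoded UMIs the order turned, with 0.0478% in members (0.0432 to 0.0527) and 0.0315% in lymphocyte-marker barcodes (0.0272 to 0.0364). Lower-mitochondrial tetYAP barcodes were at 0.0459% (0.0409 to 0.0514). Free RNA and expression in members cannot be told apart. The median ratio of this list moved with the definition of the members and with the minimum count. It was 2.41 with the limit at 60% and 2.67 with a minimum of 20 UMIs.

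Fetal and ductal genes went the same way, with 8 of 12 measured genes past 2-fold higher, 1 past 2-fold lower and a median of 3.40. Here too, genes near absent in the control, such as Gpc3 and Prom1, could be measured only through members. Of 10 cholangiocyte genes 1 was measured, and it was past 2-fold lower. Spp1 was at 5.36 (4.88 to 5.87) and Anxa5 at 3.01 (2.69 to 3.33). Gpc3, a fetal liver glypican, had 118 UMIs in members and 1 in the control, a log2 ratio of the counts of 9.79 (7.29 to 15.11). Prom1 had 97 and 0 UMIs, so its level was at least 243-fold higher with the control group set to the floor of 3 UMIs. The keratins Krt8 and Krt18 differed less, at 0.65 (0.44 to 0.86) and 0.57 (0.39 to 0.75). This list holds Tmsb4x (4.24), which is also a leukocyte gene and was at 42.8 UMIs per lymphocyte-marker barcode and 4.14 per member.

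Acute phase genes were past 2-fold higher for 15 of 25, past 2-fold lower for 1, with a median of 1.54. They included the iron oxidase Cp at 2.67 (2.60 to 2.73), Hp at 2.12 (2.08 to 2.16), the metallothionein Mt1 at 3.21 (2.998 to 3.42) and the serum amyloids Saa1 at 1.82 (1.57 to 2.07) and Saa2 at 2.65 (2.28 to 3.02). The hepcidin genes went opposite ways, with Hamp at -1.55 (-1.61 to -1.50) and Hamp2 at 4.82 (4.63 to 5.01). Of 6 inflammatory genes measured 4 were past 2-fold higher, among them Csf1, the macrophage growth factor, with 153 UMIs in members and 15 in the control and a ratio of 6.26 (5.49 to 7.13). For this list and the macrophage genes too, genes near absent in the control could be measured only through members. Macrophage genes were past 2-fold higher for 10 of 10, with C1qa at 4.82 and Lyz2 at 5.53, and as background these are not hepatocyte transcripts. The immediate early genes Fos and Jun, which respond to tissue dissociation, were at 2.03 (1.53 to 2.52) and 1.72 (1.20 to 2.21), in a list of which 6 of 14 were past 2-fold higher and 1 lower.

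Secreted plasma proteins and their chaperones also stood above the median of all genes against the control. Of 35 secreted proteins 11 were past 2-fold higher and 3 lower, with a median of 0.59. C3 was at 3.06 (3.02 to 3.09), Trf at 2.70 (2.68 to 2.72) and Alb at 1.56 (1.55 to 1.57), while Ttr was at -1.08 (-1.11 to -1.05). Of 20 chaperones 6 were past 2-fold higher, including Hspa5 at 1.19 (1.10 to 1.28) and P4hb at 1.11 (0.99 to 1.22), with a median of 0.59. Of 32 cytosolic enzymes 0 were past 2-fold higher and 3 lower (Gstp1, Fabp1 and Mif), with Fabp1 at -1.92 (-1.96 to -1.88) and a median of -0.46. With mitochondrial UMIs in the total, the medians of the secreted and chaperone lists changed sign, to -0.34 in both.

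Nuclear-encoded respiratory subunits were lower in members than in control barcodes for 73 of 73 genes, 26 of them past 2-fold, with a median of -0.90, where 3576 of all 6964 genes were below 0. Ndufa4 was at -1.07 (-1.17 to -0.97), Cox4i1 at -1.11 (-1.22 to -0.998), Cox6c at -1.09 (-1.20 to -0.98) and Cox7a2 at -1.24 (-1.39 to -1.10). Per barcode, the 74 nuclear genes of this list held 39.97 UMIs in members (39.4 to 40.5), 66.5 in lower-mitochondrial tetYAP barcodes and 100 in control barcodes (99.7 to 100.4), while mt-Co3 alone held 661, 285 and 224. The rule, which selects barcodes on the share of mitochondrial UMIs, bears on both counts per barcode.

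**Figure D5:**
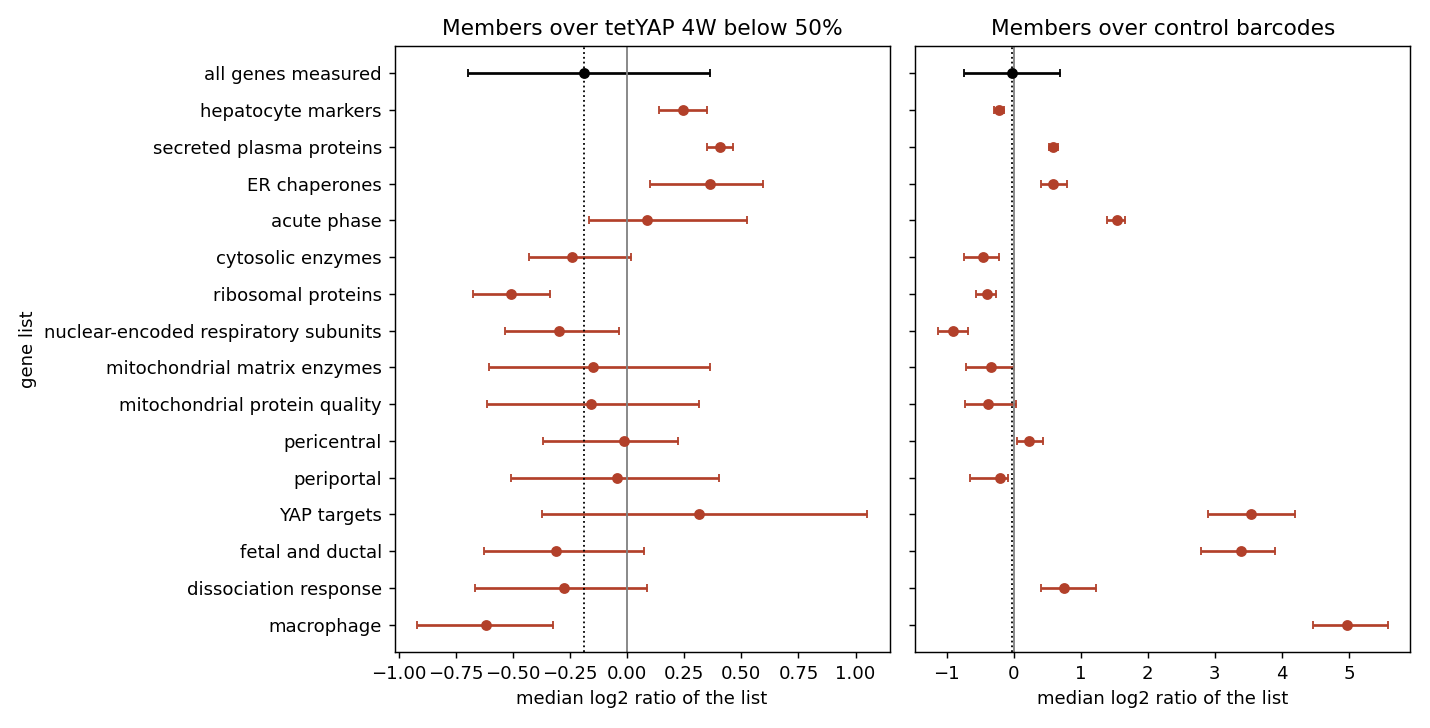
Median log2 ratio of each gene list (x axis) in members over lower-mitochondrial tetYAP barcodes (left) and over control barcodes (right), on different x scales. Bars run from the median lower to the median upper 95% bound of the listed genes and the dotted line marks the median of all genes. Secreted plasma proteins stood at 0.41 and 0.59, nuclear-encoded respiratory subunits at -0.30 and -0.90, and YAP targets at 0.32 and 3.54.

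The genes with the largest ratios against the control included several that are known to differ between female and male mouse liver. Chosen on ratios with counts under 3 UMIs set to 3, the 10 highest were A1bg, with 697 and 3 UMIs and a ratio of 10.77 (9.22 to 13.05), the Xist RNA (9.76), the sulfotransferases Sult2a2 (9.26) and Sult2a1 (9.21), and 6 genes with at most 3 control UMIs. Of these, Cyp2b9 and Gpc3 had 1 control UMI, with log2 ratios of the counts of 10.20 (7.70 to 15.51) and 9.79 (7.29 to 15.11). Cyp3a44 and Sult3a1 had 2, at 9.37 (7.50 to 12.43) and 9.19 (7.31 to 12.25). Cyp2a4 had 3, at 8.44 (6.87 to 10.74), and Fgfbp1 had 218 and 0 UMIs and was at least 546-fold higher. With so few control UMIs the order among these genes is not resolved. Lowest were the major urinary protein genes Mup11 (-8.12), Mup21 (-7.85), Mup16 (-7.06), Mup20 (-6.56), Mup7 (-6.05), Mup1 (-5.19) and Mup14 (-4.83), with Hsd3b5 (-4.93), Elovl3, which had 2 UMIs in members and stood at -7.80 (-10.85 to -5.95), and Cyp4a12a, at 0 UMIs in members and 1761 in the control. Reads of the Mup genes, which are nearly identical, may be split among them. Of genes in the fixed lists, Gstp1 (-4.58) and Serpina1e (-4.12) were also far lower. Against the lower-mitochondrial tetYAP barcodes of the same library, A1bg stood at 0.22 (0.05 to 0.39), Sult2a1 at -0.04 (-0.26 to 0.17), Sult2a2 at -0.30 (-0.52 to -0.07) and Mup20 at 0.35 (-0.26 to 0.99), with Xist and Gpc3 at the values given for that comparison.

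Genes that serve the mitochondrion were looked at next, since the members were defined by its RNA. Matrix enzymes were past 2-fold higher for 1 (Pcx, 1.08) and lower for 1 (Fh1, -1.16) of 38 genes against the lower group, and higher for 1 (Idh2, 1.60) and lower for 2 (Fh1, -1.25, and Etfb, -1.16) of 39 against the control. These 4 names were chosen after their values were seen, because their counts were small. Cps1, the first enzyme of the urea cycle, was at 0.28 (0.13 to 0.44) and -0.07 (-0.17 to 0.04), and Aldh2 at -0.20 in both. Of mitochondrial chaperones and proteases, none of 10 was past 2-fold against the lower group and 1 of 13, the protease subunit Clpp (-1.04), was lower against the control. Hspd1 stood at -0.36 (-0.65 to -0.06) and -0.38 (-0.61 to -0.17), Hspe1 at -0.14 (-0.35 to 0.07) and -0.82 (-0.97 to -0.67), and Hspa9 at 0.20 (-0.14 to 0.53) and -0.28 (-0.50 to -0.06).

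Stress and death genes were mostly too sparse to judge. In the integrated stress response, 4 of 17 genes were measured against the lower group and 6 against the control, with 0 past 2-fold in either. Its transcription factors Atf4 and Atf5 stood at -0.21 (-0.80 to 0.38) and 0.05 (-0.26 to 0.37) against the lower group, and at -0.72 (-1.15 to -0.31) and -0.30 (-0.52 to -0.08) against the control. Of mitophagy and apoptosis genes 7 of 21 were measured against the lower group, with 0 past 2-fold. Cycs, cytochrome c, was at -0.57 (-0.95 to -0.20) and -1.28 (-1.57 to -1.01), the receptor Bnip3l at -0.84 (-1.37 to -0.33) and -0.42 (-0.85 to -0.02), and Sqstm1 at 0.29 (-0.28 to 0.87) and 0.01 (-0.38 to 0.38). For maintenance and expression of the mitochondrial genome, 3 of 23 genes were measured against the lower group and 0 were past 2-fold, and 14 were measured against the control, 1 past 2-fold higher (Twnk, the mitochondrial helicase, 1.02) and 4 lower, all with at most 27 UMIs in members. Among these was Tfam, which packages mitochondrial DNA, at -1.12 (-2.05 to -0.31).

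Cyp2e1, a pericentral cytochrome, had 0 to 15 UMIs per member with a median of 2, and stood at 0.02 (-0.10 to 0.15) and -0.04 (-0.13 to 0.05) against the groups. Cyp2f2, a periportal cytochrome, had 0 to 5 UMIs, and stood at 0.28 (0.03 to 0.54) and -1.25 (-1.42 to -1.09). Over the 494 members the Spearman correlation of their shares was -0.07, and that of Cyp2e1 with Oat, another pericentral gene, was 0.15. Both correlations were small at this depth per member, and zonation among members was not tested.

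Variation among members beyond counting error was visible for few genes, by a measure that depends on abundance. For 1011 genes with at least 100 UMIs, the sum of squared deviations relative to that of a Poisson count at each member's depth had a median of 1.06, and it exceeded 1.5 for 38 genes and 2 for 16. At equal relative variation this value rises with the UMIs per member, so sparse genes could vary as much and stay near the median. The globins Hbb-bs, Hba-a1 and Hbb-bt had the highest values, which fell to between 1.04 and 1.13 without the 2 members rich in erythroid UMIs. Alb was next at 7.98, with 7.63 to 14.9% of nuclear-encoded UMIs between the 5th and 95th percentiles of members. Trf followed at 6.49, Apoe, an apolipoprotein, at 6.02, and C3 at 5.25, then Xist at 4.49 and Hp at 3.40, with Malat1, which the rule capped, at 3.31. Shares of the abundant secreted genes ran together over members, with Spearman correlations of 0.60 for Alb and Trf, 0.57 for Alb and Apoe, and 0.57 for C3 and Trf, whereas Apoe and Apoa2 had -0.25. These correlations are over barcodes of 1 library that share its free RNA, and are given as a description.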

How the data were processed

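Perfused hepatocytes of 2 libraries were profiled by droplet-based 3' single-cell RNA-seq. The authors deposited raw UMI counts per gene and cell barcode (31053 genes, 4513 barcodes). As the study's methods and the submitters' processing notes state, reads went through Cell Ranger against mm10, and limits of 3000 barcodes per condition and 7500 UMIs per barcode were applied; no library and no barcode in the table exceeded them. All columns were mapped to a library by their prefix, 0 were left unmapped, and groups were taken from the genotype labels. No doublet caller was run, so doublets may remain.

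The members and gene lists were chosen with earlier results of these data known. Counts were summed over barcodes per group and scaled to 10000 nuclear-encoded UMIs. Ratios used genes with at least 50 UMIs over both groups, with counts under a floor of 3 UMIs per group set to it, except that named genes with 1 or 2 UMIs in a group are printed with the ratio of the counts, and exact conditional binomial 95% intervals on the counts. For levels per barcode the interval is the exact Poisson one, and for shares the Clopper-Pearson one. UMI counting limits but does not remove amplification error, and with 1 library per group the intervals and floors cover counting error only, so no p-value was computed. Ratios were checked on simulated counts.

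Named genes were the mitochondrial mRNAs, the markers, in each list the genes with most UMIs or an interval excluding 2-fold, the 10 highest and 10 lowest per comparison (at least 100 UMIs, interval excluding 1.5-fold, without predicted genes, Malat1 and the 12 rule genes), and the 10 most variable. Python 3.11.15, numpy 2.4.6, pandas 2.3.3, scipy 1.17.1, R 4.3.3 and edgeR 4.0.16 (TMM factors only) were used. Gene positions come from RefSeq (GRCm38.p6), coding lengths from GENCODE vM1. The alternatives changed the limits on members, the scaling, the weighting and thinning of barcodes, the minimum count and the floor. Leaving out barcodes with erythroid or other-cell UMIs, the bands in the control library and the levels per barcode in lymphocyte-marker barcodes were added after the data had been seen.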

Additional observations from a re-analysis of the deposited data

How the results depend on the processing

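Of the values that answer a comparison, 160 stayed within their error or within 1.5 times under the alternatives, 48 moved beyond it and 2 changed sign. For the moves given here the cause was not tested, except where the alternative itself tested fewer genes or barcodes or changed the total. No paired analysis was possible because each group was 1 library with no replicate number, and for the same reason no replicate could be left out. The planned comparison with control barcodes at 50% or more was not run, since there were 40 of them and 50 were required. Sparse genes are limited by depth, as the counts at other minimum UMIs show.

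With the mitochondrial limit at 40%, mt-Co1 held 13.6% of mitochondrial UMIs, the mean member held 1773 nuclear-encoded UMIs, and the secreted median over the lower group was 0.54. At 60%, there were 283 members, with 13.9% mt-Co1 and 1578 nuclear-encoded UMIs, 30 genes were 2-fold higher than in the lower group, the secreted median was 0.23 and the YAP target median over the control 2.41. At most 9 Malat1 UMIs gave 13.5% mt-Co1 and 1697 nuclear-encoded UMIs. At most 1 UMI of other-cell genes gave 1679 nuclear-encoded UMIs, 61 genes lower than in the lower group and a YAP target median of 2.68.

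Scaling to all UMIs, which puts the rule's own mitochondrial UMIs in the total, had the widest effect. Over the lower group it gave 2 genes higher and 1606 lower, and medians of -0.41 for secreted proteins, -0.45 for chaperones, -0.57 for hepatocyte markers, -1.05 for cytosolic enzymes and -1.11 for respiratory subunits. Genes that turned there were Alb (-0.21), Apoe (-0.18), Hspa5 (-0.36), Hsp90b1 (-0.36), Calr (-0.51), A1bg (-0.59), Gpc3 (-0.16), Csf1 (-0.12), Cps1 (-0.53), Cyp2f2 (-0.53) and Fgb (-0.32). Over the control it gave 304 genes higher and 3367 lower, and medians of -0.34 for secreted proteins, -0.34 for chaperones, -1.83 for respiratory subunits, -0.18 for dissociation genes, -0.70 for pericentral genes, 0.60 for acute phase genes, 2.60 for YAP targets and 2.46 for fetal and ductal genes. Calr (-0.22), Neat1 (-0.10), Krt8 (-0.28), Krt18 (-0.36), Fgb (-0.30) and Pcx (-0.56) turned.

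Without the 50 most abundant genes in the total, 156 genes were higher and 61 lower than in the lower group, the secreted median was 0.55, and Ttr (0.025) and Apoa2 (0.020) turned. With TMM, 220 were higher and 42 lower, the secreted and chaperone medians were 0.65 and 0.61, and Ttr (0.13), Apoa2 (0.13), Cox6c (0.0071), Mt1 (0.024), Aldh2 (0.045) and Cox7a2 (0.043) turned. Over the control TMM gave 1194 lower genes and medians of -1.20 for respiratory subunits, 1.24 for acute phase genes and -0.066 for pericentral genes.

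Thinning gave 54 genes higher and 55 lower than in the lower group, 578 higher than in the control and a YAP target median of 2.80. A minimum of 20 UMIs gave 196 and 474 over the lower group, 1735 higher over the control and a YAP target median of 2.67, and a minimum of 200 UMIs gave 24 and 5, then 322 and 314. In alternatives added after seeing the data, leaving out barcodes of at least 50 erythroid UMIs gave a secreted median of 0.33, a median of 0.20 for erythroid genes, of which Hbb-bs alone (0.20) was still measured, and an erythroid median of -0.15 over the control. Leaving out those of at least 10 other-cell UMIs as well gave 0.27, 0.13 (Hbb-bs 0.13) and -0.11, and the macrophage median (0.24), Lyz2 (0.46) and Bnip3l (0.10) turned over the lower group.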
